A study of Mus musculus with 8 samples.

Results

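The forkhead transcription factors are the genes whose protein carries the forkhead (winged helix) DNA-binding domain, and they were taken here by symbol, from Foxa to Foxs followed by a number, with antisense and host transcripts ending in "os" left out. The RefSeq gene table of the mouse holds 44 such genes, and all 44 were on the array, with 55 probes among 20145 genes named on it. Of these, 33 (75%) were measured, meaning that the array's own flag put a probe well above background in 3 of 3 samples of either group. The share over all named genes was 72.1% (14519 genes).

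Forkhead factors bind DNA through a conserved domain and are grouped into lettered subfamilies by its sequence. FoxA factors open closed chromatin in the endoderm, FoxC and FoxF factors act in mesoderm and in vessel formation, FoxO factors are held in the cytoplasm when the kinase Akt phosphorylates them, and Foxm1 drives genes of mitosis. In the embryo Foxc2 acts with Etv2 on enhancers of endothelial genes, and FoxO factors act in endothelium and in blood stem cells.

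Gene expression was measured on Agilent 1-colour arrays in mouse C57BL/6 embryonic stem cell derivatives titled iRUNX1, in which doxycycline switches on Runx1 (Tet-on), the transcription factor needed for blood cells to form from hemogenic endothelium. Embryoid bodies were grown for 3.25 days, cells bearing Flk-1 (the VEGF receptor Kdr) were selected, cultured for 2 to 2.5 days, selected again and grown for 2 days as hemogenic endothelium. The 3 uninduced samples (DOX-, genotype field "control") carry the same inducible gene by their titles, and the 3 induced samples (DOX+) received 0.3 µl/ml doxycycline overnight, in the unit that the labels give. There was also 1 array per group titled as a technical repeat, and the labels do not say whose RNA it holds, so these arrays stayed out of the test. Whether the cells' own Runx1 is intact, where the inducible gene lies and how many clones were used is not told in the sources used here, and doxycycline alone, in cells lacking that gene, was not analysed here. Each difference below therefore stands for doxycycline together with the gene it induces.

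Signals are given in log2 units above or below the 75th percentile of their own array, and a change is induced minus uninduced. Changes were tested with limma over all 14519 genes, with the Benjamini-Hochberg adjustment and a threshold of adjusted p under 0.05. That percentile lay between 338 and 973 on the 6 arrays, 55.6% to 70.4% of spots were well above background, and no spot was saturated. Against the 4 brightest spike-in probes it was higher on the induced array in replicates 1, 2 and 3, by 1.02, 0.75 and 1.61 (mean 1.13 ± 0.44, SD, n = 3). With spike-in scaling the median change over all genes was 1.22, against 0.09 here, so a fall here is a fall relative to the other genes of the array. Same-numbered uninduced and induced arrays deviated together, and forkhead genes and list counts whose calls change when the replicate number is a block are also given with it. The Runx1 probe kept for the fit read -4.57 ± 0.25 without and -5.60 ± 0.60 with induction (SD, n = 3), a change of -1.03 with adjusted p = 0.126, or 0.0214 with the block, lower in 3 of 3 replicates, and its signal cleared background on 3 uninduced and 2 induced arrays. The other Runx1 probe cleared it on none, and nothing used here says whether either probe lies within the inducible gene, so the arrays hold no check of the induction through Runx1 itself. Of 17 blood markers measured, 6 rose and 0 fell, with Spn (CD43) at 4.51 (2.83 with normexp background correction), Fcer1g at 2.79 and Myb at 4.79, and with the block 8 were higher. Whether past the threshold or not, 12 of the 17 were above 0 and 5 below. Of 18 endothelial markers, 3 fell (Ecscr, Eng and Tek) and 0 rose, and with the block 10 were lower and 1 was higher. Their summed level, on the linear scale in units of the array's 75th percentile, ran from 246 to 594 on uninduced and from 117 to 311 on induced arrays. The sum over all 18 listed blood markers ran from 104 to 131 and from 99 to 122, and the bright Itgam and Cd34 carry most of it. Cdh5, the cadherin of endothelium, and Kdr, the Flk-1 by which the cells were selected, were well above background on every array of both groups. In mixed cells, fewer cells of a type and less RNA per cell cannot be told apart.

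Among the 33 measured forkhead genes, 2 rose on induction, Foxa2 and Foxs1, and 0 fell. In the whole fit 4.14% of genes rose and 2.16% fell, or 6.3% in either direction, and the forkhead share was 6.06%. The unadjusted p was under 0.05 for 8 members, 6 higher and 2 lower, against 21.6% of all genes. With the replicate number as a block, 4 members were higher (Foxa2, Foxs1, Foxf2 and Foxn3) and 3 were lower, among them Foxc2 and Foxj1, beside 9.37% and 6.8% of all genes (16.2% together). In 7 members every induced array lay above every uninduced array and in 2 every induced array lay below, where 19.6% and 8.71% of all genes did so. The 33 changes ran from -1.20 to 2.58 with a median of 0.00, against 0.09 for all genes, with 17 above 0 and 16 below. With normexp background correction, an alternative that models the background, 2 members were higher and 0 lower, beside 2.91% and 1.87% of all genes (4.78% together). With normexp and the block together 6 were higher and 6 lower, beside 14.7% and 15.8% (30.5%). The higher ones were Foxa2, Foxs1, Foxn3, Foxo1, Foxp1 and Foxk2, and among the lower were Foxc2, Foxf1, Foxj1, Foxj2 and Foxo3. With the technical repeats added as further arrays 3 were higher and 1 lower, beside 7.41% and 3.5% (10.9%). As a family the forkhead genes thus had shares of calls near those of the whole array.

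**Figure D1:**
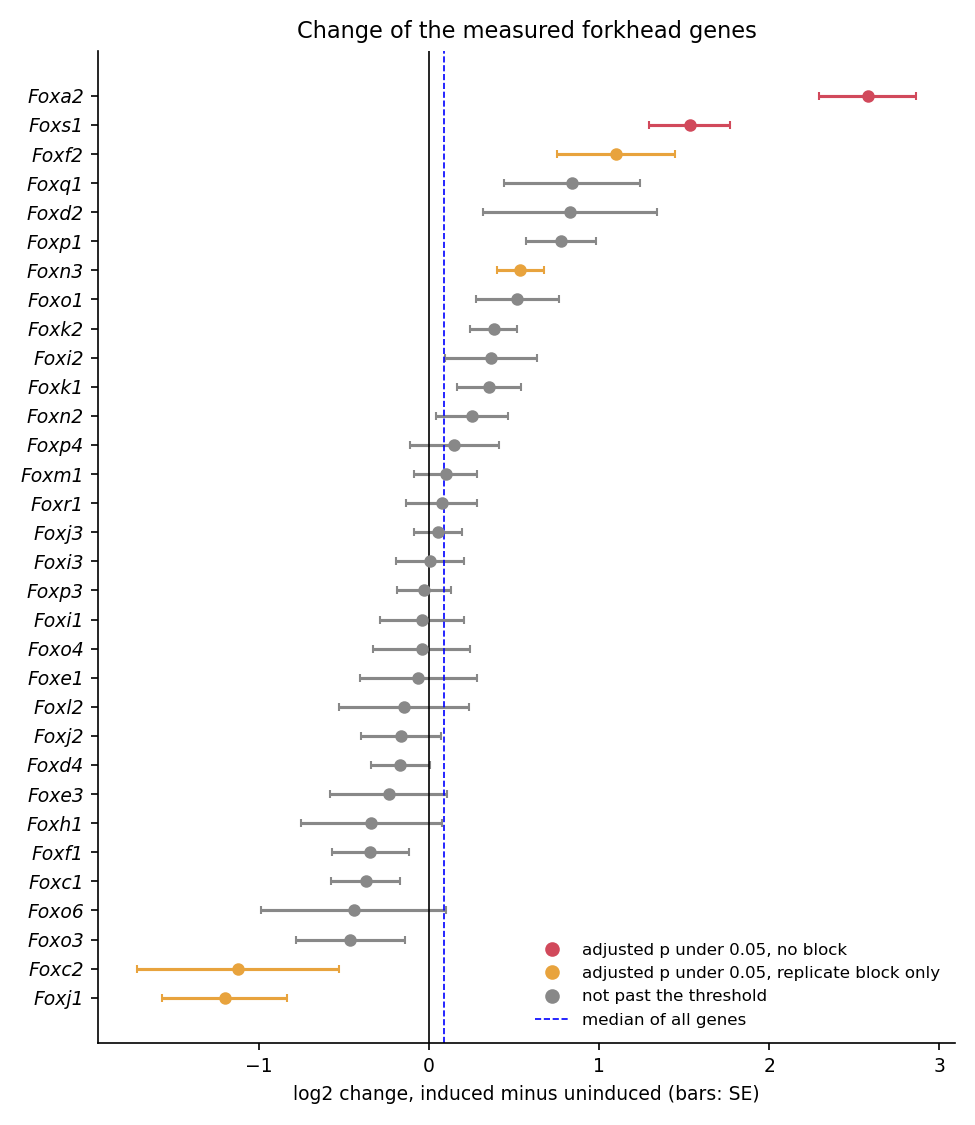
Change of the measured forkhead genes named in the text, induced minus uninduced, on the log2 scale of signals relative to the array's 75th percentile. Points are changes fitted by limma (3 arrays per group) with bars of 1 SE, red past the threshold without a block, orange with the replicate block only and grey otherwise, and the dashed line is the median of all genes (0.09). Foxa2 at 2.58 and Foxs1 at 1.53 stand to the right, and Foxj1 at -1.20 and Foxc2 at -1.12 to the left.

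Foxa2, a pioneer factor of endoderm, notochord and floor plate, had the largest change of the family. Its log2 signal in replicates 1, 2 and 3 was 0.25, -0.20 and -0.74 without induction and 2.41, 2.59 and 2.05 with it. The lowest induced array stood well above the highest uninduced one, so the groups did not overlap. The means were -0.23 ± 0.50 and 2.35 ± 0.28 (SD, n = 3), a rise of 2.58 (SE 0.28, 95% interval 1.90 to 3.26) or 5.97-fold, with adjusted p = 0.00499. The rise was 2.15, 2.79 and 2.79 within replicates 1, 2 and 3. A second Foxa2 probe gave 1.96, 2.81 and 2.81 in the same pairs, with a mean change of 2.53. Both probes were higher in each replicate.

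The other FoxA genes were not measured. Foxa1, which acts with Foxa2 in endoderm, cleared background on 1 uninduced and 1 induced array, and Foxa3, the liver member, on none. Because Foxa2 is used as an endoderm marker, 49 genes of FoxA factors and endoderm were set beside it. Of these 23 were measured, 3 rose and 1 fell, with a median change of -0.25, and with the block 4 were higher and 3 lower. Trf (transferrin) rose by 2.66, Spp1 (osteopontin, a secreted matrix protein also made by macrophages) by 4.44, and Cdh1 (E-cadherin) by 2.27, or 1.15 with normexp. Sox17, a factor shared by endoderm and arterial or hemogenic endothelium, fell by 3.54 (adjusted p = 0.0182). Of 18 endoderm and epithelial markers, 8 were measured, and besides Foxa2 only Cdh1 rose and only Sox17 fell without the block. With it Krt19, a keratin, was lower too, at -0.83 (adjusted p = 0.101, or 0.0172 with the block). Alb, Ttr, Apoa1 and Hnf4a, which define liver-like endoderm, did not clear background on any of the 6 arrays. The summed level of the 16 markers that are not forkhead genes ran from 211 to 415 on uninduced and from 246 to 333 on induced arrays. That sum is mostly keratin, since Krt18 alone stood at log2 7.20 to 8.42 on uninduced and 7.68 to 8.20 on induced arrays. It cannot show whether the dim endoderm markers changed.

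Promoter windows were available for 28 of the 44 forkhead genes. Foxs1, Foxc2 and Foxj1 were among those without one, so they were not searched. The promoter of Foxa2 is shown because it had the largest change. Those of Foxp1 and Foxc1 are shown because they hold the only matches to a RUNX motif among the available forkhead promoters. Each is the 250 bases before a transcription start in RefSeq (GRCm38.p6), written 5′ to 3′ on the gene's strand, with the motif in capitals. The Foxa2 window is chr2:148046970-148047219 on the minus strand, before the outermost of its starts. The Foxp1 window is chr6:99520994-99521243 on the minus strand and the Foxc1 window is chr13:31806396-31806645 on the plus strand.
Foxa2: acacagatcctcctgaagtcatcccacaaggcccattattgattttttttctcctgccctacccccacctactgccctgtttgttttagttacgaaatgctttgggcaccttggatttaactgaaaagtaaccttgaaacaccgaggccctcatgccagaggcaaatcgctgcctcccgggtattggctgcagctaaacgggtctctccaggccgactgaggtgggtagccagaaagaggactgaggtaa
Foxp1: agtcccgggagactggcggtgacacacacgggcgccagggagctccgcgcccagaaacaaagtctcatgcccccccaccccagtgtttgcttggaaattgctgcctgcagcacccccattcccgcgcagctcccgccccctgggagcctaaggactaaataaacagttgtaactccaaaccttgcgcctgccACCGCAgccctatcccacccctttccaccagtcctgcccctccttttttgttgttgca
Foxc1: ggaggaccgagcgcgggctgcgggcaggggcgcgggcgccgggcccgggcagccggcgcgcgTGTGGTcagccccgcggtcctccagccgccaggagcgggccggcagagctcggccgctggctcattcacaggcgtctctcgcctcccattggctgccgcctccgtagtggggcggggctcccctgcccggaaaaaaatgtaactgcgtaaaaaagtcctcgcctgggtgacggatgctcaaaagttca

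The motifs searched were TGTGGT and TGCGGT with their reverse complements ACCACA and ACCGCA. At least 1 match was in 18.6% of all 32851 promoter windows in the table and in 2 of the 33 windows of 28 forkhead genes (6.06%). The 3 windows of Foxa2 held no match, and the other Foxp1 windows held none. The forkhead motif TGTTTAC with its reverse complement GTAAACA was in 3.17% of all windows and in 1 forkhead window, that of Foxa1. The forkhead windows had a median GC content of 62.0% and a median of 16 CpG dinucleotides, against 52.4% and 6 over all windows. A match is a run of letters and not a shown binding site, and binding was not measured here.

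Foxs1, a factor found in pericytes and sensory neurons, was the other gene that rose. Its signal was -1.66, -1.52 and -1.39 on the uninduced arrays and -0.37, -0.09 and 0.49 on the induced ones. The groups did not overlap, and the induced arrays were more spread than the uninduced. The mean went from -1.52 ± 0.14 to 0.01 ± 0.44 (SD, n = 3), a rise of 1.53 (SE 0.24, 95% interval 0.96 to 2.11) or 2.89-fold, with adjusted p = 0.0155. Without uninduced replicate 2 the adjusted p was 0.0702 and without induced replicate 2 it was 0.0553. Over all genes 358 and 499 were called in those fits, against 915 with all arrays. With any 1 array left out the change of Foxs1 stayed between 1.29 and 1.72. Of 16 measured smooth muscle and mesenchymal markers, 0 rose and 1 fell (Thy1), with a median change of -0.54, or 0.59 with spike-in scaling. With the block 1 was higher and 6 lower. The summed level of all 18 listed markers was 800 to 911 on uninduced and 576 to 688 on induced arrays. That sum is mostly Acta2 and Tagln, which changed by -0.65 (adjusted p = 0.0542) and -0.33 (adjusted p = 0.380). It cannot show whether the dimmer markers changed.

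**Figure D2:**
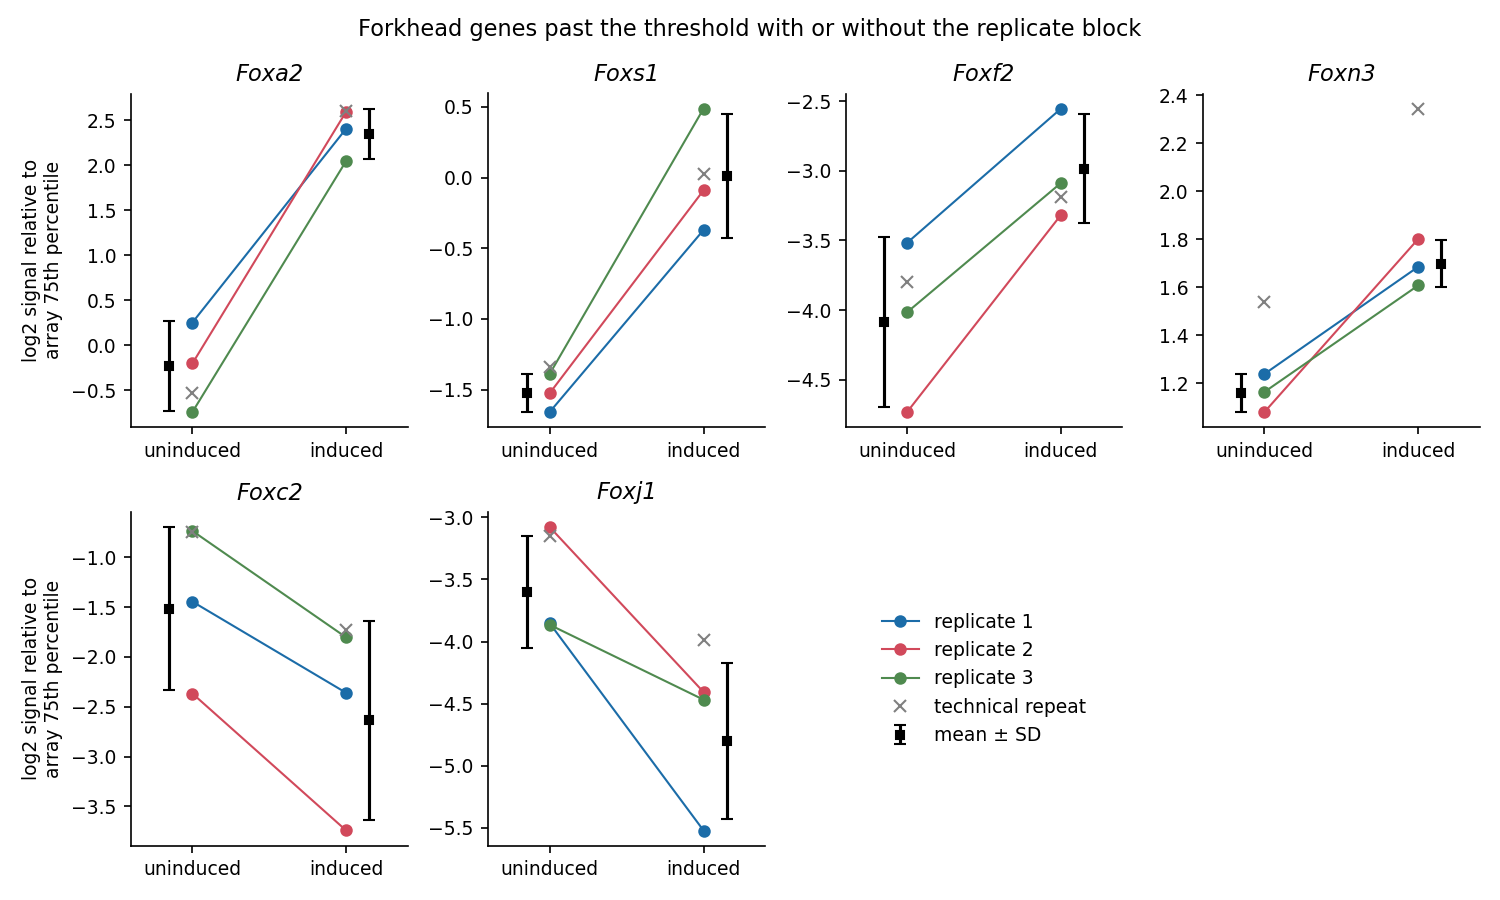
Log2 signal relative to the array's 75th percentile for 6 of the 7 forkhead genes past the threshold with or without the replicate number as a block. Points are single arrays joined by replicate number, crosses are the technical repeat arrays that stayed out of the test, and squares with bars are the mean ± SD of 3 arrays. Foxa2 goes from a mean of -0.23 to 2.35, and the Foxc2 lines run in parallel from different starting levels.

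FoxC, FoxF, FoxQ and FoxL genes lie in small clusters, in which neighbouring forkhead genes can act in the same mesoderm. On chromosome 8 the order is Foxf1, Foxc2, Foxl1. Foxc2, which acts in vessel and lymphatic formation, read -1.44, -2.37 and -0.73 on the uninduced arrays and -2.36, -3.74 and -1.80 on the induced ones. The induced array was lower in each replicate, while the groups overlapped, since the replicates lay at different levels. The change was -1.12 (SE 0.59) with adjusted p = 0.323, and blocking on the replicate number gave an SE of 0.14 and adjusted p = 0.00887. With spike-in scaling its change was 0.01, so its fall under the block is relative to the other genes. Foxf1, needed for extraembryonic and gut mesoderm, had means of -3.34 ± 0.38 and -3.69 ± 0.19 and Foxl1 did not clear background anywhere. Of the measured genes next to the cluster, Irf8 (a factor of myeloid cells) changed by 0.09 (adjusted p = 0.857) and Fbxo31 (a ubiquitin ligase subunit) rose by 0.70 (adjusted p = 0.0324).

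On chromosome 13 the order is Foxq1, Foxf2, Foxc1. Foxf2, a factor of mesenchyme and brain pericytes, read -3.52, -4.73 and -4.01 on the uninduced arrays and -2.55, -3.32 and -3.09 on the induced ones. The groups did not overlap, and the change was 1.10 (SE 0.35) with adjusted p = 0.133, or 0.0109 with the replicate number as a block. With normexp background correction, which lifts dim signals, its change was 0.10 (adjusted p = 0.706), and 0.574 with both, so the value depends on how the background of a dim probe is treated. Foxq1, known in epithelia and hair, had means of -4.15 ± 0.29 and -3.30 ± 0.79, higher in 3 of 3 replicates, with a change of 0.84 (adjusted p = 0.279). With normexp the change of Foxq1, as dim as Foxf2, was 0.12 (adjusted p = 0.729). Foxc1, the paralogue of Foxc2, had means of -1.55 ± 0.08 and -1.93 ± 0.35 and a change of -0.37 (adjusted p = 0.343). The neighbouring genes Hus1b (a checkpoint clamp subunit) and Gmds (an enzyme of GDP-fucose synthesis) changed by 0.47 (adjusted p = 0.198) and 0.55 (adjusted p = 0.108, or 0.0384 with the block). On chromosome 13 the measured members differed in sign, while on chromosome 8 both were lower in 3 of 3 replicates.

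**Figure D3:**
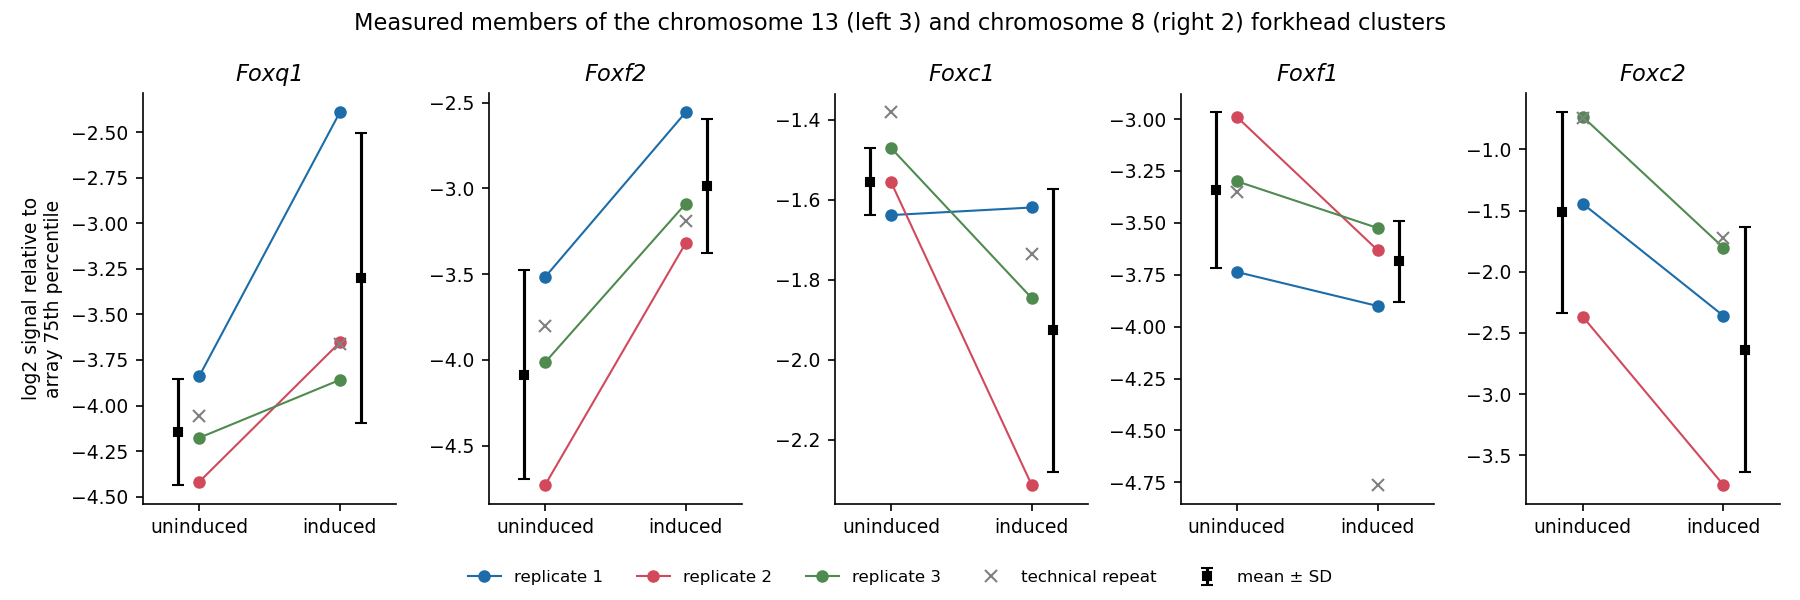
Log2 signal relative to the array's 75th percentile for the measured forkhead genes of the chromosome 13 cluster (Foxq1, Foxf2, Foxc1) and the chromosome 8 cluster (Foxf1, Foxc2). Lines join arrays of a replicate number, crosses are technical repeat arrays and squares with bars are the mean ± SD of 3 arrays, with a different range on each vertical axis. Foxf2 is higher on the induced array of each replicate (mean change 1.10) and Foxc2 is lower (mean change -1.12).

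Targets and partners of these factors were counted by list. Of 35 endothelial genes tied to FoxC and to shared forkhead and ETS enhancers, 34 were measured, 1 rose and 4 fell, and with the block 1 was higher and 12 were lower. Their median change was -0.61, and 26 of 34 were below 0. Itgb3 (integrin beta 3, a FoxC target in endothelium that platelets also carry) rose by 3.91 (adjusted p = 0.00167). Ecscr, Sox17, Eng and Tek fell by 1.36, 3.54, 0.92 and 1.13, but with spike-in scaling Eng stood at 0.21 and Tek at 0.00. The endothelial list and the endothelial markers share Ecscr, Eng and Tek, and what part the makeup of the cells has in this was not tested.

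Of 30 mesoderm and mesenchyme genes tied to FoxC, 22 were measured, 2 rose and 1 fell, with a median change of 0.15. Bmp4 rose by 1.26 and Bmp7 by 0.97, both ligands of the BMP pathway, and Tbx18, a factor of epicardium and mesenchyme, fell by 1.18. With normexp Bmp7 stood at 0.30 and Tbx18 at -0.69, and 1 gene of the list was called higher and 0 lower. The call of Tbx18 was also lost with quantile, median and spike-in scaling, where it stood at -0.05 with the last. With the block 5 were higher and 2 lower. Of 34 genes of FoxF and Hedgehog signalling, which induces Foxf1 and Foxf2 in gut mesenchyme, 29 were measured, 4 rose and 2 fell, with a median change of 0.10, and with the block 6 were higher and 8 lower. Irs1, an insulin receptor substrate, rose by 2.82 (adjusted p = 0.00353) and Notch2 by 1.12 (adjusted p = 0.00771). Rspo2, a secreted enhancer of Wnt signalling, was well above background on 3 induced and 0 uninduced arrays and was at least 2.66-fold higher. That bound sets its induced mean of -3.99 against the lowest signals well above background, and the uninduced mean as measured was -6.13 (adjusted p = 0.00639). It does not hold for normexp values, with which the change of Rspo2 was 0.05. Hand2 and Vcam1, the latter an adhesion receptor, fell by 1.35 and 2.84. With spike-in scaling Hand2 stood at -0.22 and Vcam1 at -1.72.

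Foxj1, the regulator of motile cilia, read -3.85, -3.08 and -3.87 on the uninduced arrays and -5.52, -4.41 and -4.47 on the induced ones. Every induced array was below every uninduced array, with a change of -1.20 (SE 0.37), adjusted p = 0.125 and 0.0273 with the block. With spike-in scaling its change was -0.07. Of 34 genes of motile cilia, 19 were measured, 0 rose and 1 fell, and 14 of the 19 were below 0, with a median of -0.22. The gene that fell was Dnah11, an axonemal dynein, at -1.22 (adjusted p = 0.0407), whose signal cleared background on 3 uninduced arrays and on 1 induced array and stood at -0.61 with normexp and -0.10 with spike-in scaling. Foxn4, which acts with Foxj1 in multiciliated cells, did not clear background anywhere. Foxj2 (-4.42 ± 0.43 and -4.59 ± 0.13) and Foxj3 (3.37 ± 0.13 and 3.42 ± 0.03), which share the letter but are not cilia factors, differed by less than the wider of their SDs.

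The 4 FoxO genes carry the response to insulin and PI3 kinase signalling, and none of the 4 passed the threshold with or without the block. With normexp and the block together Foxo1 was higher (adjusted p = 0.0274) and Foxo3 lower (0.0293), in a fit that called 30.5% of all genes. Foxo1 read 2.11, 2.25 and 2.44 on the uninduced arrays and 2.92, 2.30 and 3.15 on the induced ones. It was higher in each replicate, with a change of 0.52 (95% interval -0.06 to 1.11, adjusted p = 0.276), and a second probe gave 0.38. Foxo3 had means of -2.76 ± 0.35 and -3.22 ± 0.55, lower by 0.46 (adjusted p = 0.435). Foxo4 went from -3.70 ± 0.43 to -3.75 ± 0.37 and Foxo6 from -4.06 ± 0.32 to -4.50 ± 1.13, and Foxo6 was well above background on 2 of 3 induced arrays. FoxO proteins are controlled mainly by phosphorylation and export from the nucleus, which these arrays do not measure.

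Regulators of FoxO proteins (Akt and Sgk kinases, PI3 kinase subunits, 14-3-3 proteins, deacetylases and others) were 31 in number, of which 30 were measured. By limma 0 rose and 0 fell. At an unadjusted p under 0.05, 5 were higher and 2 lower, where 21.6% of all genes passed in either direction. With the block 2 were higher (Inpp5d, the blood cell phosphatase SHIP1, at 1.41, and Pik3cb at 0.59) and 1 lower (Sgk2, at -2.18). Their median change was 0.08, close to the 0.09 of all genes. The 14-3-3 proteins Ywhae and Ywhaq, which hold phosphorylated FoxO in the cytoplasm, changed by 0.25 (adjusted p = 0.456) and 0.03 (adjusted p = 0.910). Of 50 FoxO target genes, 41 were measured, 2 rose and 2 fell, with a median of -0.02, and with the block 5 were higher and 5 lower.

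Among the FoxO targets that rose was Ccr7, a chemokine receptor that guides lymphocytes to lymph nodes. It went from -4.50 ± 0.57 to 1.92 ± 0.54 (SD, n = 3), a change of 6.42 (adjusted p = 0.000852). With normexp the change of Ccr7 was 4.41, so its size depends on how the dim uninduced signal is treated. Those that fell were Sprr1a, a cornified envelope protein, by 1.62, and Trib1, a pseudokinase, by 0.88, and Trib1 stood at 0.25 with spike-in scaling. Without the block, targets known from cell cycle arrest were not among those past the threshold, for example Cdkn1b (p27) at 0.05 (adjusted p = 0.858).

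FoxP factors are repressors that act in lymphocytes, lung and brain. Foxp1, needed for B cell development, read 1.93, 2.08 and 2.39 on the uninduced arrays and 3.21, 2.66 and 2.86 on the induced ones. The groups did not overlap, with a change of 0.78 (SE 0.21, 95% interval 0.29 to 1.27), and it missed the threshold with adjusted p = 0.0844, or 0.0573 with the block. With normexp and the block together, which called 30.5% of all genes, its adjusted p was 0.0133. A second probe gave 0.58, while the third, with means of -4.59 and -5.12, gave -0.53 and turned the sign, so the probes of Foxp1 disagree. Foxp4 had means of 2.95 ± 0.11 and 3.10 ± 0.50, and its 3 probes gave 0.15, -0.05 and 0.26. Foxp3, the factor of regulatory T cells, had means of -3.61 ± 0.20 and -3.64 ± 0.09, and neither Foxp2 probe cleared background on any array.

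Of 24 partners of FoxP factors and lymphoid regulators, 18 were measured, 5 rose and 0 fell, and with the block 7 were higher. Ikzf1 (Ikaros) rose by 4.17 (adjusted p = 0.00515), and it was well above background on 1 of 3 uninduced and 3 of 3 induced arrays. With normexp its change was 1.82, and 3 genes of the list were called higher. Lef1 and Tcf7, the nuclear effectors of Wnt signalling in lymphocytes, rose by 1.76 and 1.39 (Tcf7 by 0.82 with normexp), Ikzf2 (Helios) by 1.82 and Satb1, a chromatin organiser, by 1.01. The list's median was 0.21, and Ikzf1 is also among the 6 blood markers that rose.

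Foxn3, a repressor tied to cell cycle checkpoints, read 1.24, 1.08 and 1.16 on the uninduced arrays and 1.69, 1.80 and 1.61 on the induced ones. The arrays of each group lay close together and the groups did not overlap, with a change of 0.54 (SE 0.14, adjusted p = 0.0755, or 0.0487 with the block). Foxn2 had means of 0.07 ± 0.34 and 0.33 ± 0.17, and Foxn1, the thymus epithelium factor, was well above background on 0 uninduced arrays and 1 induced array. The FoxK factors, which repress autophagy genes and compete with FoxO, were each higher on every induced array than on any uninduced one. Foxk1 went from 0.98 ± 0.18 to 1.34 ± 0.25 (adjusted p = 0.325) and Foxk2 from 2.53 ± 0.10 to 2.91 ± 0.07 (adjusted p = 0.173), which are changes of 0.35 and 0.38.

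Foxm1, the driver of the G2 and M phase programme, had means of 1.51 ± 0.12 and 1.60 ± 0.28 (SD, n = 3), a change of 0.10 with a 95% interval of -0.34 to 0.54. A second Foxm1 probe gave -0.49 (means -2.57 ± 0.05 and -3.06 ± 0.64), so the direction of Foxm1 is not settled by these probes. Of its 34 target genes all 34 were measured, and by limma 0 rose and 0 fell. At an unadjusted p under 0.05, 7 were higher and 0 lower, where 21.6% of all genes passed in either direction. With the block 1 was higher (Bub1b, a spindle checkpoint kinase, at 0.90). Of the 34, 32 were above 0, with a median of 0.32 against 0.09 for all genes. The share of all genes above or below 0 was not counted, for this or the other lists. Birc5 (survivin) changed by 0.33 (adjusted p = 0.248) and Cks1b by 0.22 (adjusted p = 0.415). These genes are transcribed together in dividing cells and are not independent of each other.

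**Figure D4:**
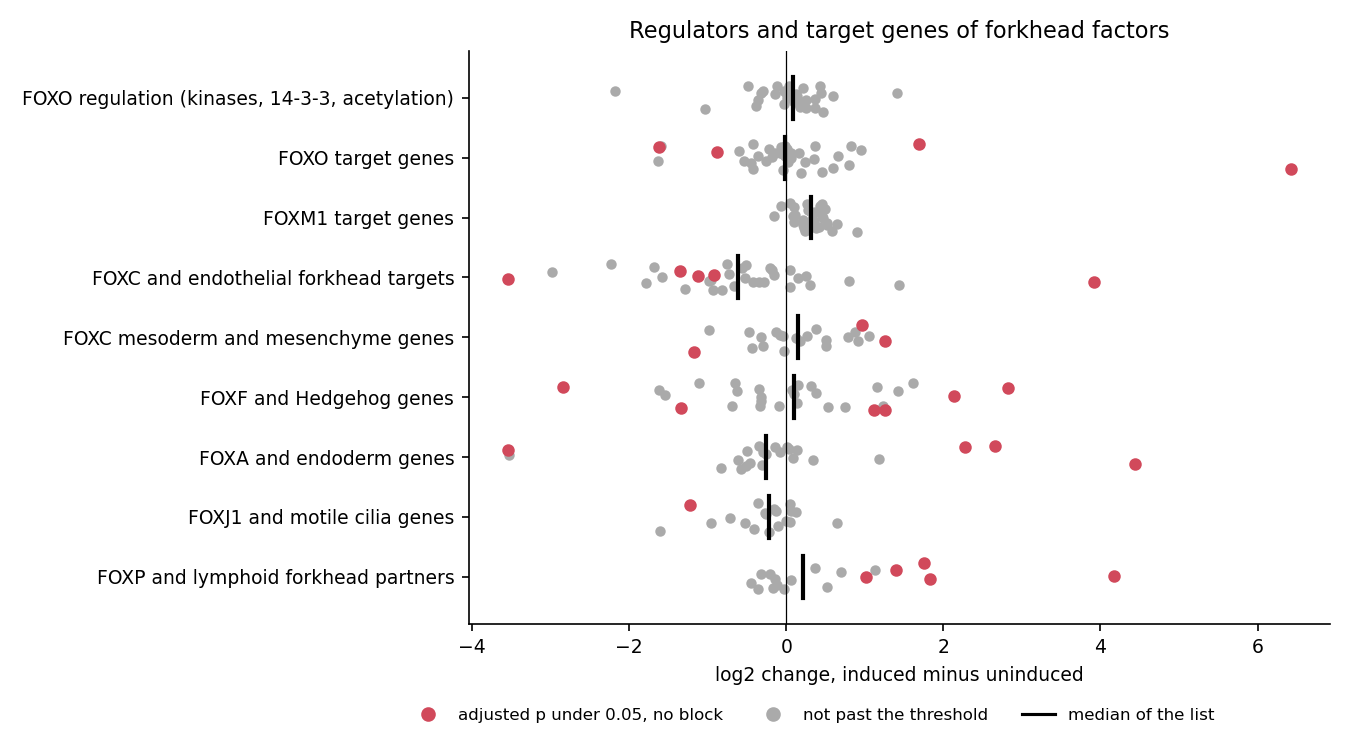
Change of each measured gene in 9 lists of forkhead regulators, partners and targets, induced minus uninduced, on the log2 scale of signals relative to the array's 75th percentile. Each point is a gene, red past adjusted p under 0.05 in limma without a block, and the black bar is the list's median; the height of a point within its row has no meaning. FoxM1 targets lie close together around 0.32, and the FoxC and endothelial list has the lowest median, -0.61.

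The remaining measured members were compared by their group means. Foxd2 went from -3.73 ± 0.43 to -2.90 ± 1.02 (adjusted p = 0.387), a change of 0.83, or 0.22 with normexp. Its neighbour on chromosome 4, the lens factor Foxe3, went from -3.69 ± 0.70 to -3.93 ± 0.13 (adjusted p = 0.714). Foxd4 had means of -2.84 ± 0.08 and -3.01 ± 0.25, the thyroid factor Foxe1 of -4.70 ± 0.71 and -4.76 ± 0.10, and Foxh1, the nuclear partner of Smad proteins in Nodal signalling, of -1.97 ± 0.67 and -2.31 ± 0.57. None of these differences passed the threshold.

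The FoxI factors, known in ear and ionocytes, had means of -3.37 ± 0.37 and -3.41 ± 0.29 for Foxi1, -5.47 ± 0.49 and -5.10 ± 0.22 for Foxi2 and -3.19 ± 0.17 and -3.19 ± 0.30 for Foxi3. Foxr1 had means of -4.71 ± 0.26 and -4.64 ± 0.27, and it and Foxi2 were well above background on 2 of 3 uninduced arrays. Foxl2, the ovary factor, had means of 5.07 ± 0.63 and 4.92 ± 0.51 with 1 probe and of -2.73 ± 0.75 and -3.01 ± 0.36 with another. The changes of these probes were -0.15 and -0.28. Apart from the 7 members past the threshold with or without the block, the 26 other measured members had changes from -0.46 to 0.84 and adjusted p from 0.0844 to 0.990. The forkhead genes not yet named and below that limit on all 6 arrays were Foxb1, Foxb2, Foxd1, Foxd3 and Foxr2. With Foxa1, Foxa3, Foxl1, Foxn1, Foxn4 and Foxp2 they make up the 11 members not measured, for which no fold is given.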

How the data were processed

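For each array the authors deposited scanner output with the processed and median intensity of every spot (linear) and flags. It came from Feature Extraction 10.7.3.1 per the file headers, while 10.7.1.1 and limma stand in the submitters' processing notes. All 8 arrays were on 1 slide. A table that the authors deposited beside it rises with signal on a log2 scale, and its centring stays unknown (column medians 5.36 to 5.38). In it 2 columns followed the array they are named for and 6 followed another, so it served as an alternative only.

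Control spots and outlier spots (114 to 246 per array of 59305) were left out, the 75th percentile of each array was subtracted from its log2 processed signals, and repeated spots were averaged by probe. RefSeq entries named 26582 probes (GRCm38.p6 table), and 29099 stayed unnamed. A probe was kept if well above background on all 3 arrays of a group, and a gene with several was represented by its brightest. The test was limma's moderated one (limma 3.58.1, R 4.3.3; lmFit, then eBayes), two-sided, adjusted over all 14519 genes. The p-values measure the spread between samples that the labels call independent biological replicates. The fit without a block was tested on simulated data in which every array was drawn independently. That test does not cover replicates that deviate together or the fit with the block.

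Deviations of same-numbered uninduced and induced arrays correlated at 0.65, 0.45 and 0.43, and of others at -0.47 to 0.13. Each group was centred on its own mean, which pushes the other values down when the same-numbered ones are positive. The contrast between them is therefore not separate support for a pairing. Replicate 1 also had the highest 75th percentile in both groups (699 uninduced, 973 induced). Whether signal strength or a shared culture ties the numbers was not tested. Normexp used the median signal with its background (offset 50), as the mean signal was not used here. Named are the forkhead genes and, per list, up to 4 members of lowest adjusted p past the threshold, or the 2 of highest signal where none passed. Hand2, Vcam1, Tek, Tcf7, Cdkn1b and the list genes given only with the block were chosen after their values were seen. The members and the lists were chosen with earlier results of these data known. List medians carry no test. A few genes are counted but not reported here by name.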

Additional observations from a re-analysis of the deposited data

Results flagged for a closer look

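The technical repeat arrays, 1 per group, stood outside the test. On them Foxa2 was higher in the induced array by 3.13 (log2) and Foxs1 by 1.37, in the same direction as in replicates 1 to 3. With 1 array per group and RNA of unstated origin these differences were not tested.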

How the results depend on the processing

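The rise of Foxa2 kept its direction and its call under all 18 alternatives but the deposited table with its columns read as named, where Foxa2 stood at -0.00281 and 0 genes were called, 0 higher and 0 lower by limma, with 0 forkhead genes higher and 223 genes at an unadjusted p under 0.05. There 6 of the 8 columns follow another array. Foxs1 lost its call there and without replicate 2 of either group.

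Without a filter on dim probes 534 genes were called (356 higher, 178 lower). With the replicate number as a block 2347 were called (1360 higher, 987 lower), with 4 forkhead genes higher and 3 lower. The block moved no forkhead change but its SE, and it ended no forkhead call. With the block and normexp together, chosen after seeing the data, 4430 were called (2135 higher, 2295 lower), with 6 forkhead genes higher and 6 lower. With the technical repeats as further arrays 1584 were called (1076 higher, 508 lower), with 1 forkhead gene lower. Leaving out each array in turn gave 358 to 822 genes called, 257 to 538 higher and 101 to 284 lower, and 1 to 2 forkhead genes higher. The lowest of these counts came without uninduced replicate 2. With spike-in scaling 11 genes were called lower and the forkhead median was 1.13. The p-values of that fit are of little use, because the array offsets are shared by all genes. Spike-in scaling with the block was tried for that reason and left out. No slide or scan block was run, since all arrays share 1 slide and 1 scan. Members near the background, such as Foxi1 and Foxe1, changed sign under 8 and 7 of the alternatives, and dim signals and 3 arrays per group limit what can be seen for them.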
